A study of Mus musculus with 12 samples.

Results

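The comparison sets the livers of 3 male PPARalpha-null mice against the livers of 3 male wild-type mice, all kept for 5 days on a diet that held 0.5% bezafibrate by weight. Its 6 arrays, chosen by genotype and agent in the sample labels, are 6 of the 12 arrays of the series. The null line is given as 129S4SvJae-PPARalphatm1Gonz/J crossed with Jcl:ICR, and the wild-type mice as Jcl:ICR, so the disrupted gene and the rest of the strain background differ together and cannot be told apart. All mice were 6 to 12 weeks old, were kept under 12 h of light and 12 h of dark, and gave liver at Zeitgeber time 14, early in the dark period. From each liver, 250 ng of total RNA was labelled for an Affymetrix GeneChip array. The 3 untreated wild-type mice, whose agent is given as control, are used here to place a level. The 3 Clock mutant mice on bezafibrate entered the fit, where they contribute to the estimate of spread. No null mouse went without the drug, so a difference present in null livers before feeding and a difference in their response cannot be told apart.

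PPARalpha is a nuclear receptor that is abundant in hepatocytes. Fatty acids and fibrate drugs such as bezafibrate bind it, and with its partner RXR it binds DNA at paired half-sites with a single base between them. In fasted or fibrate-fed rodents it is known for raising the genes of fatty acid uptake, peroxisomal and mitochondrial beta-oxidation, omega-oxidation and ketone body formation, for enlarging the peroxisome compartment, and for lowering genes of amino acid breakdown and of inflammation. Bezafibrate also binds the related receptors PPARdelta and PPARgamma.

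Each value is the log2 expression of a probe set, so a difference of 1 is a 2-fold difference, and levels of different genes cannot be compared with each other. A gene was called when its adjusted p (limma, Benjamini-Hochberg over 13598 genes) fell below 0.05 and the groups differed by 1.5-fold or more. Of the 13598 genes, 1827 were called, which is 13.4%. Null livers were higher for 727 genes, or 5.35%, and lower for 1100 genes, or 8.09%. The difference passed 4-fold for 63 of the higher and 109 of the lower genes, and 8-fold for 21 and 32. Null and treated wild-type values did not overlap for 6607 of the 13598 genes tested, and for 1791 of the 1827 called. A lack of overlap was thus common and adds little to a call. Over single probe sets the calls were 3516 of 28344, or 12.4%, with 4.99% higher and 7.42% lower in null. Against untreated wild type, the same null livers differed in 904 genes, or 6.65%, with 3.96% higher and 2.69% lower; both comparisons use the 3 null arrays. The median difference over all genes was 0.01 against treated wild type, the median of its standard error (SE) was 0.0996, and arrays correlated at 0.9943 to 0.9958 within null and 0.9934 to 0.9939 within treated wild type. Where the labels give no separate breeding or batch for the mice, p-values measure the spread between these samples.

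**Figure D1:**
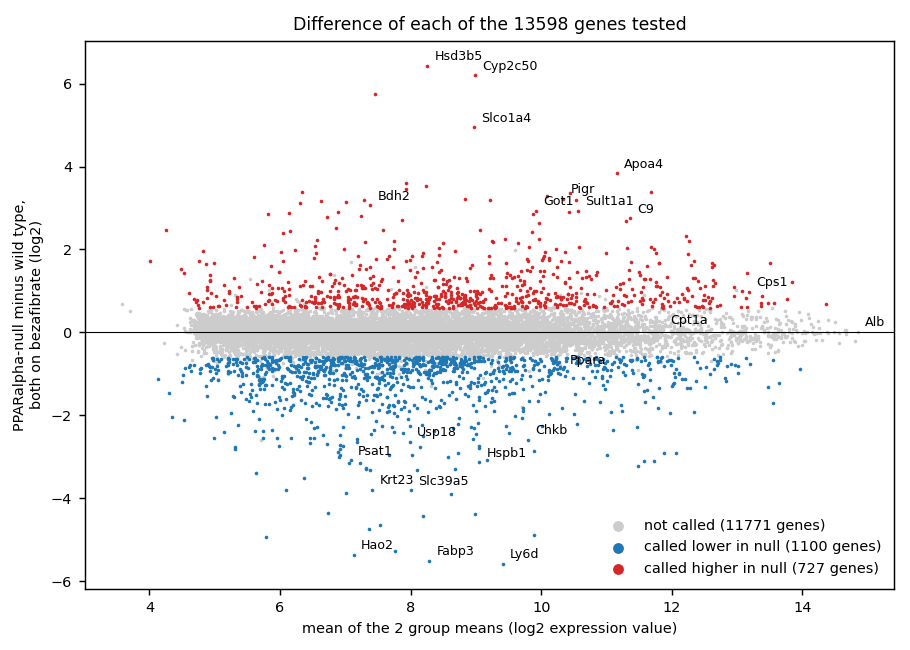
Each point is 1 of the 13598 genes tested; the horizontal axis is the mean of the PPARalpha-null and treated wild-type group means (log2 expression value) and the vertical axis their difference (log2, above 0 higher in null). The 727 higher and 1100 lower genes are coloured, and they are spread over the whole range of levels, with albumin (Alb) at the far right on the line of no difference.

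Albumin (Alb), the defining product of hepatocytes, was near the top of the scale in both groups. Alb read 14.85, 14.87 and 14.84 in null mice 1, 2 and 3 and 14.86, 14.82 and 14.83 in drug-fed wild-type mice 1, 2 and 3, a difference of 0.02 (SE 0.053). Of 14 hepatocyte markers tested, 4 were higher in null (Cps1, Cebpa, Tat and Fga) and none was lower; the median difference was 0.39. Ppara itself kept a signal in null livers. Its brightest probe set read 10.04, 9.88 and 9.73 in null, 10.81, 11 and 10.53 in treated wild type, and 11.40, 11.85 and 11.43 in untreated wild type. Groups did not overlap, and null was lower than treated wild type by 1.86-fold (difference -0.90, SE 0.142). The other 2 Ppara probe sets gave -0.50 and -0.46; the labels do not place any of the 3 relative to the disrupted part of the gene, so this signal does not test the genotype. Among its relatives, Ppard was not called (difference 0.09, SE 0.0955), and its partner Rxra passed on adjusted p but stayed under 1.5-fold (difference 0.44, SE 0.0836). Pparg, the receptor of fat cells, read 6.70, 7.54 and 7.37 in null, 6.88, 6.52 and 6.81 in treated wild type and 5.79, 5.83 and 5.62 in untreated wild type. It did not pass the test between the treated groups (difference 0.47, adjusted p = 0.151) but was 1.46 higher in null than in untreated wild type (adjusted p = 0.00171). The coactivator Ppargc1a was 4.66-fold higher in null than in treated wild type, at 8.0, 7.85 and 7.19 against 5.43, 5.39 and 5.55, and its 5 probe sets were all called in that direction.

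**Figure D2:**
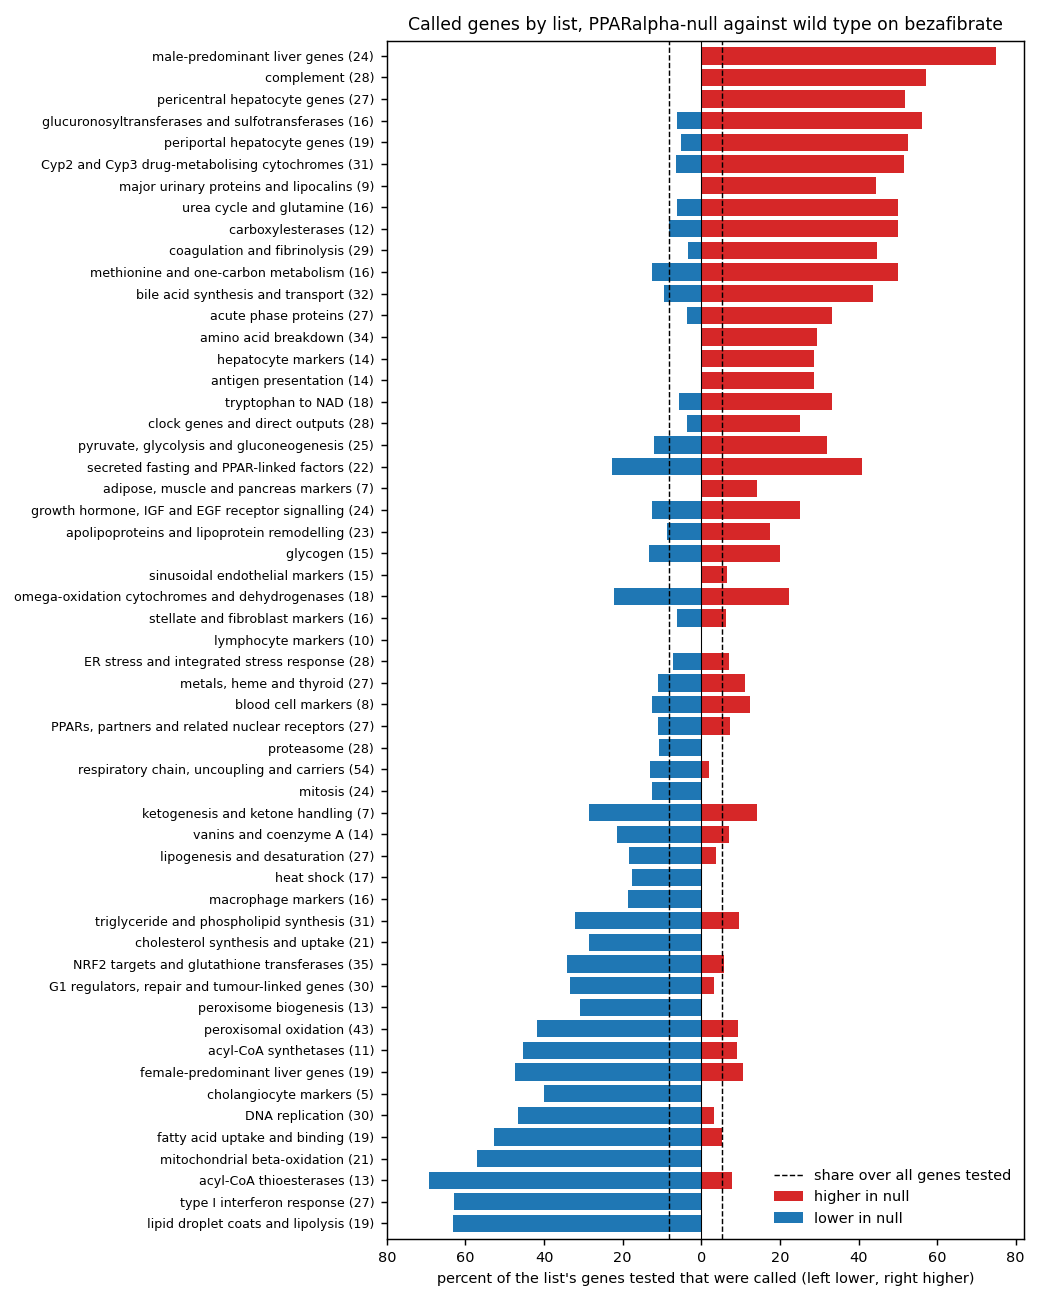
For each of 55 gene lists (number of genes tested in brackets), bars give the percent of genes called higher (right) and lower (left) in PPARalpha-null than in wild type, both on bezafibrate; dashed lines mark 5.35% and 8.09%, the shares over all genes tested. Lipid lists and the interferon list extend to the left, and lists of secreted proteins, drug metabolism, amino acid use and male-predominant genes to the right. A gene can stand in several lists.

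The sequence just upstream of the genes was searched for the paired half-sites that PPARalpha and several other receptors bind. RefSeq promoter sequences (GRCm38.p6) were given for 10926 of the genes tested, and the 250 bases before the start of transcription were searched on both strands. The full motif AGGTCANAGGTCA stood in 7 promoters, or 0.0641%, and in 0 of 888 genes called lower and 0 of 567 called higher. The looser motif AGGNCANAGGNCA, which includes every match of the first, stood in 0.421% of all promoters, in 2 of the 888 genes called lower (0.225%) and in 5 of the 567 called higher (0.882%). At these counts a share is moved by single genes, and a match is a description of letters, not a bound site. Of these 7 called genes, 4 are shown because they give both directions and, in one pair, the same letters; Ccl6 and Pea15a were chosen after their values were seen. They are printed 5′ to 3′ in the direction of the gene with the matched letters in capitals.
Pbld1 (higher in null), chr10:63061383-63061445, plus strand: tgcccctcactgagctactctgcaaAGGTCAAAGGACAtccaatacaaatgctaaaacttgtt
F7 (higher in null), chr8:13025975-13026033, plus strand: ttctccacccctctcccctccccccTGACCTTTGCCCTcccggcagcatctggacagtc
Ccl6 (lower in null), chr11:83593138-83593200, minus strand: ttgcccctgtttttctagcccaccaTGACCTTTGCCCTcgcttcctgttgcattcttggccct
Pea15a (lower in null), chr1:172206942-172207004, minus strand: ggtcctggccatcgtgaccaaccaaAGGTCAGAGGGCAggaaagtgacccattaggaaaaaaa
The match begins 181 bases before the start in Pbld1, 34 in F7, 88 in Ccl6 and 175 in Pea15a. F7, which encodes coagulation factor VII, and Ccl6, which encodes a chemokine, carry the same 13 letters on the reverse strand, yet F7 was 2.38-fold higher in null (10.60, 10.21 and 10.27 against 9.03, 9.14 and 9.16) and Ccl6 was 1.73-fold lower (7.85, 7.57 and 7.81 against 8.72, 8.32 and 8.56). Pbld1 read 10.29, 9.55 and 9.35 against 4.57, 8.97 and 4.84, with drug-fed wild-type mouse 2 near the null level, and Pea15a read 7.67, 7.61 and 7.71 against 8.38, 8.47 and 8.34. Sites further from the start were not analysed here.

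Several of the largest differences belonged to genes in none of the pathways below. Bhlhb9, which encodes an armadillo repeat protein, read 4.46, 5.21 and 5.72 in null, 10.43, 10.33 and 10.43 in treated wild type and 6.74, 7.43 and 6.72 untreated, a 38.5-fold difference between the treated groups. Lrrc24, a leucine-rich repeat protein gene, read 4.86, 4.60 and 4.20 against 9.07, 9.23 and 8.41, and untreated wild type lay at 4.58 to 4.97. Trim6, a ubiquitin ligase gene, read 4.16, 4.16 and 4.22 against 8.21, 7.42 and 8.35. Each separated the treated groups without overlap, and the null values of Lrrc24 and Trim6 lay at or below the filter level of 4.87 to 4.92, which is set by rank and is not a measured background.

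Among genes that bring fatty acids into the cell and carry them there, 10 of 19 tested were lower in null, 1 was higher, and the median difference was -1.05. Lpl, the lipoprotein lipase that frees fatty acids from circulating triglyceride, read 9.22, 9.66 and 9.73 in null, 12.63, 12.62 and 12.23 in treated wild type and 9.0, 10.90 and 9.82 without drug. The null and untreated mice overlapped, and null was 7.75-fold lower than treated wild type (difference -2.95, SE 0.359, adjusted p = 8.86e-05). The carrier Fabp4, known from fat cells and macrophages, was 8.61-fold lower in null at 9.65, 10.17 and 10.73 against 13.45, 13.18 and 13.23, yet these null values all lay above the 8.28 to 8.64 of untreated wild type. The transporter Slc27a1 (difference -1.90) and the carnitine transporter Slc22a5 (-1.67) were lower as well. The abundant liver carrier Fabp1 differed by -0.20, under 1.5-fold. The single higher member was Slc27a5 at 0.66, a ligase that also activates bile acids, whose call was lost without drug-fed wild-type mouse 2.

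Among enzymes that attach coenzyme A to fatty acids, 5 of 11 synthetases tested were lower, 1, Acsm1, was higher, and the median was -0.13; the leading member, Acsl3, read 8.15, 8.25 and 8.35 against 10.33, 9.81 and 9.96. Of 13 thioesterases, which split acyl-CoA back to free acid, 9 were lower and 1 higher, with a median of -1.18; the higher one, Acot11, lost its call without null mouse 2 or 3 or any 1 of the drug-fed wild-type mice (differences of 1.36 to 2.09). Mitochondrial Acot2 read 10.18, 10.75 and 10.92 in null against 13.64, 13.38 and 13.55 in treated wild type, a 7.48-fold difference. Cytosolic Acot1 read 12.10, 12.36 and 12.28 against 13.53, 13.27 and 13.48. In untreated wild type the same 2 genes lay far lower, at 7.80 to 8.71 and 8.98 to 9.52, so the null livers held a raised level of both. Against untreated wild type, 8 of the 13 thioesterases were higher in null and none lower, where 3.96% of all genes were higher and 2.69% lower.

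Most of the called peroxisomal genes were lower in null. Of 43 genes tested, 18 were lower (41.9%, against 8.09% of all genes) and 4 higher (9.3%, against 5.35%). The median was -0.47, and leaving out 1 array gave 15 to 20 lower. Thiolase Acaa1a differed by -1.43, the bifunctional enzyme Hsd17b4 by -1.12 and the carnitine octanoyltransferase Crot by -1.10. Catalase, which splits hydrogen peroxide, (Cat) differed by 0.08 and was not called. Pipox, which oxidises sarcosine and pipecolic acid rather than fatty acids, was 2.81-fold higher in null at 11.43, 11.60 and 11.25 against 9.92, 9.83 and 10.06. The other higher members were the coenzyme A hydrolase Nudt7, the glycolate oxidase Hao1 and the enoyl-CoA reductase Pecr (difference 1.05). Of 13 genes for building the organelle, 4 were lower (Pex11a, Pex16, Pex19 and Pex3) and none was higher. Averaging all probe sets per gene in place of taking the brightest left 2 of these 4.

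In mitochondria, 12 of 21 beta-oxidation genes were lower, none was higher, and the median was -0.73. The subunit Hadha of the trifunctional protein read 10.76, 11.06 and 10.78 in null and 12.14, 12.08 and 12.11 in treated wild type, and the carnitine carrier Slc25a20 read 11.30, 11.68 and 11.66 against 12.54, 12.44 and 12.59. Groups did not overlap in either gene. Cpt1a, the enzyme that commits fatty acids to mitochondria, differed by 0.08 (SE 0.119), with overlapping groups. Most of the respiratory chain was not called either: of 54 genes of the chain and of mitochondrial carriers, 7 were lower (13%, against 8.09% of all genes). Only 1 was higher (1.85%, against 5.35%), and the median was -0.09. The largest difference was that of the subunit Cox6b2 (-4.64), and the subunit Cox7a1 was lower too (-1.03). The other lower members were carriers or uncoupling proteins, with Slc25a30 the furthest apart at 8.41, 8.17 and 8.33 against 11.03, 10.52 and 10.62. Among 7 ketone body genes tested, Slc16a1 and Acat1 were lower and Bdh2, a short-chain dehydrogenase, was 8.38-fold higher in null. Bdh2 read 9.03, 8.92 and 8.79 against 6.32, 5.46 and 5.77, while untreated wild type lay at 8.84 to 9.26, so the null livers had the untreated level. Acat1 lost its call without null mouse 1 or drug-fed wild-type mouse 1, and 2 ketone genes were higher without null mouse 3 or drug-fed wild-type mouse 3.

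Lipid droplet genes were lower as a group. Of 19 tested, 12 were lower and none higher, with a median of -1.16. Over the list, the mean level was 9.27 to 9.48 in null, 10.39 to 10.53 in treated wild type and 9.01 to 9.05 in untreated wild type, with no overlap. The median difference of null from untreated wild type over its genes was 0.01. The higher null mean against untreated wild type thus rested on some members, Hsd17b13 (below) among them. Hilpda, an inhibitor of lipolysis on the droplet, read 6.97, 7.22 and 7.33 against 9.25, 9.60 and 9.77. Its target, the triglyceride lipase Pnpla2, was lower too, at 8.52, 8.66 and 8.45 against 9.95, 9.98 and 9.89. Plin5, which ties droplets to mitochondria, read 9.49, 9.42 and 9.32 against 10.86, 11.17 and 11.66, and was below untreated wild type by 0.63. Hsd17b13, a droplet enzyme, behaved otherwise: 12.96, 12.75 and 12.88 in null, 12.59, 12.70 and 12.91 in treated wild type, and 8.29, 8.44 and 8.58 in untreated wild type. The treated groups overlapped (difference 0.13, SE 0.0978), and null lay 4.42 above untreated wild type (adjusted p = 4.762e-10). Hsd17b13 was singled out after its values were seen, and another of its probe sets was called lower in null.

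Of 31 genes that build triglyceride and phospholipid, 10 were lower and 3 higher. Choline kinase beta (Chkb), which starts phosphatidylcholine synthesis, read 8.47, 8.58 and 8.45 in null, 11.21, 11 and 11.06 in treated wild type, and 8.58, 8.76 and 8.76 in untreated wild type (difference -2.59, SE 0.0786, adjusted p = 6.725e-09). Aqp3, a channel for glycerol, read 5.29, 5.86 and 5.08 against 8.46, 7.96 and 8.82, and Gpat3, which makes the first ester bond, read 6.49, 8.48 and 8.01 against 10.50, 10.22 and 10.63. Neither was called between null and untreated wild type, with differences of 0.10 and 0.66. Lpin1, a phosphatidate phosphatase and partner of Ppargc1a, went the other way, at 11.04, 11.41 and 9.94 against 9.30, 9.39 and 9.22.

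A small set of genes was lower in null than in treated wild type and still far above untreated wild type. The 12 genes called lower with the highest level in null over untreated wild type were taken by rule; 11 of them had null mouse 1 as the lowest of the 3 null mice, against 35.8% of all genes tested. Pctp, a carrier of phosphatidylcholine, read 9.80, 10.47 and 10.60 in null, 11.68, 11.65 and 11.65 in treated wild type and 4.59, 4.77 and 5.28 without drug, so null was 1.37 below the treated and 5.41 above the untreated mice. Pdk4, the kinase that shuts pyruvate dehydrogenase, read 9.13, 10.08 and 10.85 in null, 13.26, 12.89 and 13.21 in treated wild type and 5.45, 5.48 and 6.46 untreated. Vnn1, a pantetheinase, read 9.36, 10.80 and 11.12 in null, 13.55, 13.20 and 13.29 in treated wild type and 6.91, 7.36 and 8.38 untreated. For all 3 the groups did not overlap, and the null mice lay further apart than the drug-fed wild-type mice. Cd36, the fatty acid translocase, was tighter: 10.27, 10.40 and 10.29 in null, 12.68, 12.40 and 12.72 in treated wild type and 7.79, 7.49 and 7.68 untreated. The omega-hydroxylase Cyp4a14 read 12.37, 13.19 and 13.50 in null, 14.22, 14.23 and 14.30 in treated wild type and 8.48, 8.61 and 10.44 untreated. Its call between the treated groups (difference -1.23, adjusted p = 0.0451) was lost without null mouse 1 (difference -0.90), without null mouse 2 (-1.31) and without drug-fed wild-type mouse 1, 2 or 3 (-1.24, -1.24 and -1.20).

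**Figure D3:**
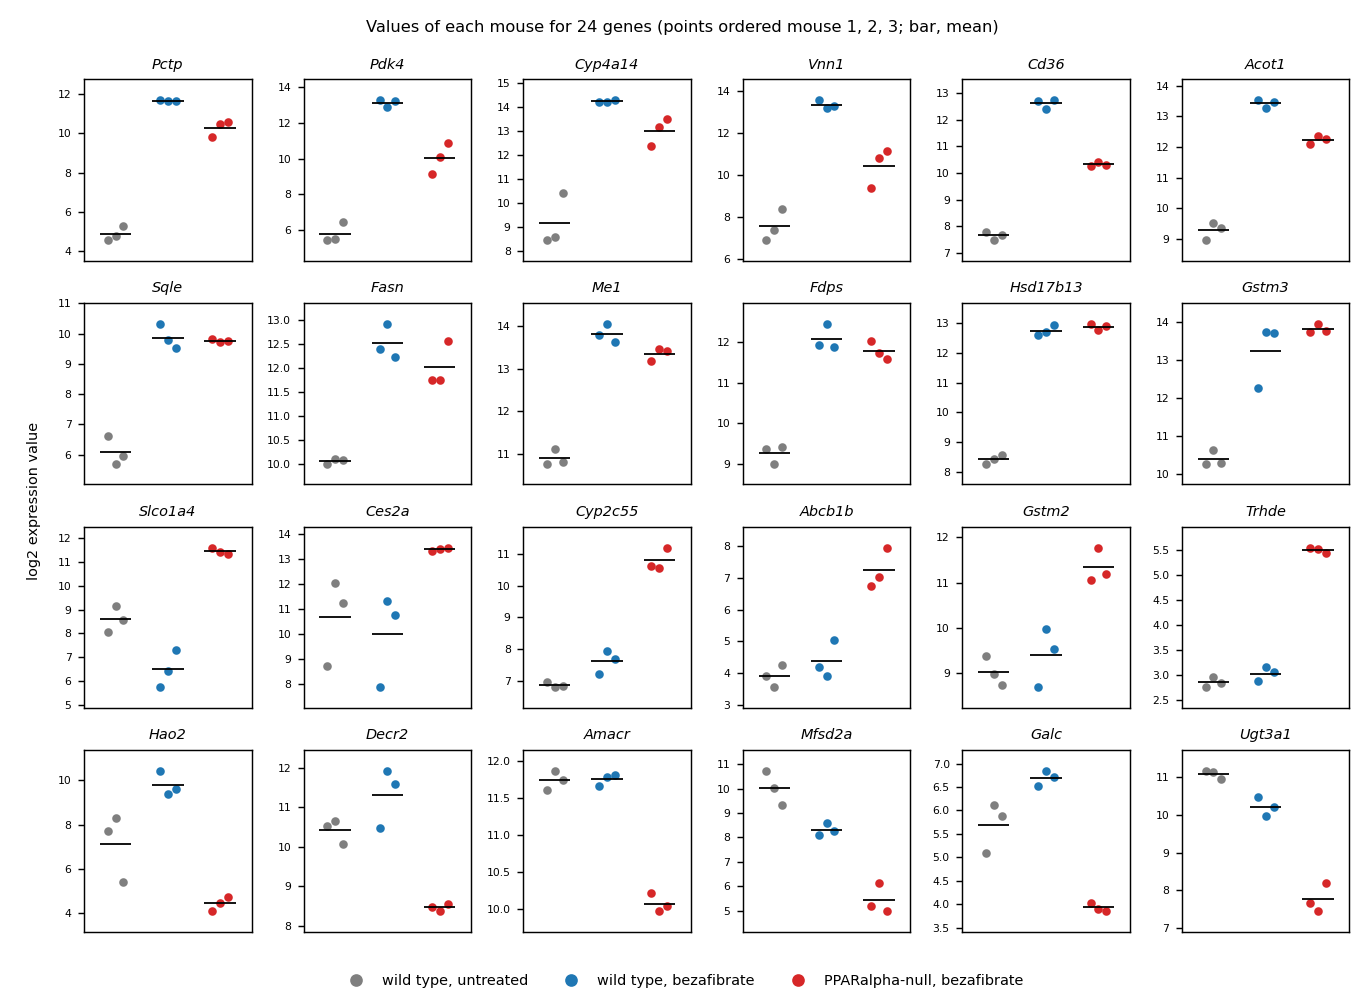
Log2 expression value (vertical axis, its own scale in each panel) of 24 genes in each mouse of untreated wild type, treated wild type and PPARalpha-null on bezafibrate; points are mice 1 to 3 and bars are group means. In row 1 null lies between the wild-type groups, in row 2 near treated wild type, in row 3 above both and in row 4 below both.

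Genes of sterol synthesis, and some of fat synthesis, lay above untreated wild type in the null livers. Of 21 cholesterol genes tested, 6 were lower in null than in treated wild type and none higher, with a median of -0.30; leaving out null mouse 1, drug-fed wild-type mouse 1 or drug-fed wild-type mouse 2 left 3. Against untreated wild type, 15 of the 21 were higher in null and none lower, where 3.96% of all genes were higher and 2.69% lower. Squalene epoxidase (Sqle) read 9.82, 9.74 and 9.75 in null, 10.32, 9.78 and 9.51 in treated wild type and 6.61, 5.71 and 5.95 untreated. Null thus lay 3.68 above untreated wild type (adjusted p = 0.00049), and the treated groups overlapped; the 95% interval of their difference ran 1.07 either side of -0.10. HMG-CoA synthase Hmgcs1 was one of the 6 that were lower, at 11.16, 11.86 and 11.78 against 13.03, 12.86 and 12.95, and still above the 10.42 to 10.57 of untreated wild type. Of 27 genes of fatty acid synthesis and desaturation, 5 were lower and 1 higher, with a median of -0.21. Against untreated wild type, 12 of the 27 were higher in null (3.96% of all genes were) and none lower. Fatty acid synthase (Fasn) read 11.75, 11.74 and 12.55 in null, 12.38, 12.91 and 12.23 in treated wild type, and 10.02 to 10.11 untreated. Malic enzyme (Me1) read 13.17, 13.46 and 13.40 in null and 13.78, 14.04 and 13.63 in treated wild type, a difference under 1.5-fold, and 10.78 to 11.11 untreated. The exception at the lower end was the desaturase Scd2, 5.99-fold lower in null at 7.89, 7.47 and 7.62 against 10.73, 10.44 and 9.55. The single higher member (2 without null mouse 1, drug-fed wild-type mouse 2 or drug-fed wild-type mouse 3) was pyruvate kinase (Pklr), which feeds the pathway, at 10.87, 10.74 and 10.92 against 8.32, 9.22 and 8.85, also above the 9.46 to 9.89 of untreated wild type. Sqle, Fasn and Me1 were chosen after their values were seen.

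In sugar metabolism the called genes pointed both ways. Of 25 genes of pyruvate use, glycolysis and gluconeogenesis, 8 were higher in null (32%, against 5.35% of all genes). A further 3 were lower (12%, against 8.09%), and the median was 0.18. The aminotransferase Got1 read 11.96, 11.35 and 10.88 in null against 8.49, 8.43 and 8.46 in treated wild type, a 7.65-fold difference; untreated wild type lay at 10.20 to 11.15. The glucose-6-phosphate carrier Slc37a4 (11.97, 12.01 and 11.86 against 9.57, 10.46 and 10.11) and fructokinase Khk (12.54, 12.65 and 12.60 against 10.84, 11.70 and 11.28) were higher as well. Fbp2, the muscle form of fructose bisphosphatase, was 9.68-fold lower at 5.86, 5.58 and 5.59 against 8.99, 8.91 and 8.97, and null sat at its untreated level of 5.58 to 6.20. The glycogen-targeting subunit Ppp1r3g was lower too, at 5.75, 6.58 and 6.45 against 8.75, 8.60 and 8.49.

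Genes of amino acid use were called higher in null on several routes. In the urea cycle and glutamine list 8 of 16 genes were higher and 1 lower, with a median of 0.55. Cps1, the entry enzyme of the cycle, read 13.77, 13.69 and 13.57 against 12.59, 12.66 and 12.83, and Otc, the next enzyme, read 13.12, 12.88 and 13.01 against 11.63, 11.67 and 11.79. The untreated values were 13.90 to 13.95 for Cps1 and 13.49 to 13.58 for Otc, above all null mice for both. Proline dehydrogenase (Prodh), which degrades proline, was 4.78-fold higher in null, while Aldh18a1, which makes proline, was lower (4.60, 4.54 and 4.77 against 7.08, 6.23 and 6.29). Its null values lay under the filter level of 4.87 to 4.92, and its single probe set is of a type that can match other transcripts; without such probe sets no gene of this list was lower. Of 34 genes that break down other amino acids 10 were higher and none lower, with a median of 0.24; the cysteine dioxygenase Cdo1 had the next largest difference after the histidine enzyme Hal, at 13.31, 13.32 and 12.98 against 11.46, 11.44 and 11.51. For methionine and one-carbon metabolism the count was 8 of 16 higher and 2 lower (1 lower without null mouse 1 or drug-fed wild-type mouse 1). Bhmt, which remakes methionine from betaine, read 13.90, 13.13 and 13.19 against 11.37, 11.56 and 12.54, and the glycine methyltransferase Gnmt read 14.01, 13.90 and 13.72 against 12.21, 12.41 and 12.68. From tryptophan towards NAD, 6 of 18 genes were higher and 1 lower, or 2 lower without null mouse 2, drug-fed wild-type mouse 1 or drug-fed wild-type mouse 2. Nnmt, which methylates nicotinamide, was 7.52-fold higher in null but spread widely, at 8.95, 7.51 and 8.59 in null, 5.02, 5.74 and 5.55 in treated wild type and 9.81, 7.45 and 8.09 in untreated wild type.

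Bile acid genes were higher in null for 14 of 32 tested, lower for 3, with a median of 0.65. Cyp7b1, a hydroxylase of oxysterols, read 12.88, 12.52 and 12.75 in null, 10.51, 10.87 and 11.01 in treated wild type and 12.87, 13.56 and 13.65 untreated. Fgfr4, the receptor through which the gut hormone FGF15 restrains bile acid synthesis, was 3.42-fold higher in null (8.61, 8.57 and 8.41 against 6.27, 6.93 and 7.07). The sterol hydroxylase Cyp8b1 did not pass the test (difference 0.90, adjusted p = 0.0724). The export pump Abcc4 went the other way, at 7.17, 7.89 and 7.76 in null, 9.44, 9.82 and 10.23 in treated wild type and 5.54 to 6.01 untreated.

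Enzymes that process drugs and steroids formed one of the larger groups on the higher side. In the Cyp2 and Cyp3 list 16 of 31 genes were higher and 2 lower (median 0.77), among glucuronosyl- and sulfotransferases 9 of 16 were higher and 1 lower (median 0.94), and among carboxylesterases 6 of 12 were higher and 1 lower (median 0.45), or none lower without drug-fed wild-type mouse 2. These families hold near-identical copies, so a probe set may read more than 1 of them. Sult1a1, which sulfates phenols, read 12.56, 11.96 and 11.57 in null against 8.35, 9.33 and 9.61, and Ugt2b1, which adds glucuronic acid to steroids and drugs, read 13.50, 13.27 and 13.34 against 10.80, 11.19 and 11.18. In untreated wild type these 2 genes lay at 12.28 to 12.66 and 13.61 to 13.64. Cyp1a2, which oxidises caffeine and aromatic amines, read 12.85, 12.61 and 12.43 against 10.09, 11.15 and 11.64. The 2 lower members of the cytochrome list, Cyp2b9 and Cyp2b13, are female-predominant; Cyp2b13 read 5.60, 5.62 and 5.22 in null and 8.95, 7.91 and 9.05 in treated wild type.

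Several of these genes lay above both wild-type groups. By rule, 12 genes were taken whose difference from treated and from untreated wild type was large in the same direction, among them Slco1a4, an uptake transporter of organic anions, Cyp2c55, Ces2a, Ces2b, Abcb1b and Gstm2. Abcb1b, a drug efflux pump, read 6.74, 7.03 and 7.95 in null, 4.20, 3.92 and 5.04 in treated wild type and 3.91, 3.56 and 4.25 untreated, with most wild-type values under the filter level of 4.87 to 4.92. Gstm2, a glutathione transferase, read 11.06, 11.77 and 11.20 in null, 8.69, 9.99 and 9.53 in treated wild type and 9.37, 8.99 and 8.73 untreated. Ces2b read 7.82, 7.24 and 7.65 in null, against 5.22, 5.72 and 5.52 treated and 5.42, 6.08 and 5.90 untreated. In all 3 the null mice stood clear of the 6 wild-type mice. Related Ces2e and Ces2g lay 0.74 and 0.84 above untreated wild type as well as 1.49 and 1.55 above treated wild type. Gstm3 belongs beside them only in part: at 13.73, 13.96 and 13.76 in null and 12.26, 13.75 and 13.71 in treated wild type it did not pass the test between the treated groups, and null lay 3.43 above the untreated mice; it was chosen after its values were seen. The other genes above both wild-type groups were Trhde, a peptidase that degrades thyrotropin-releasing hormone, Serpinb1a, a protease inhibitor, Fam89a, Celsr1, Ppp1r42 and S100a8. Trhde read 5.55, 5.51 and 5.45 in null, 2.87, 3.15 and 3.04 in treated wild type and 2.75, 2.95 and 2.84 untreated. All its wild-type values lay under the filter level of 4.87 to 4.92, so among the groups shown it passed the filter only through null. S100a8, a protein of neutrophils, overlapped between groups (7.93, 9.59 and 9.30 against 8.10, 6.71 and 6.49), while its partner S100a9 was lower in null at 5.95, 5.87 and 5.77 against 8.55, 7.05 and 6.75.

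The mirror set lay below both wild-type groups. Mfsd2a, a transporter of phospholipids that carry long-chain polyunsaturated fatty acids, read 5.20, 6.13 and 4.99 in null, 8.08, 8.61 and 8.27 in treated wild type and 10.71, 10.01 and 9.32 untreated. Decr2, the peroxisomal reductase for polyunsaturated fatty acids, read 8.47, 8.38 and 8.54 in null, 10.47, 11.92 and 11.59 in treated wild type and 10.52, 10.67 and 10.07 untreated. Galc, the lysosomal galactosylceramidase, read 4.03, 3.90 and 3.86 in null, under the filter level, against 6.53, 6.84 and 6.72 treated and 5.10, 6.11 and 5.88 untreated. Ugt3a1, a sugar transferase, read 7.67, 7.45 and 8.18, against 10.47, 9.98 and 10.21 treated and 11.16, 11.15 and 10.95 untreated. The remaining members were Hao2, Amacr, Bhlhb9, Tdrp, Caln1, A2ml1, Pde7b and the transcript 2010315B03Rik. For 2010315B03Rik the wild-type groups lay close together, at 9.23, 9.11 and 9.10 and at 8.93, 9.04 and 9.02, and null read 6.24, 6.20 and 6.13 (difference -2.96, SE 0.0912). For Caln1 they overlapped (6.59, 6.04 and 6.38 treated, 6.42, 6.09 and 6.61 untreated), with null at 3.86, 3.72 and 4.23, under the filter level. For these 12 and the 12 genes above, the disrupted gene and the strain background cannot be told apart. The call of A2ml1 was lost without null mouse 1 (difference -1.51) or null mouse 2 (-1.26).

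Genes that are higher in male than female mouse liver had the largest share of genes called higher among the 55 lists. Of 24 tested, 18 were higher in null, none was lower, and the median was 1.67, against a median of 0.01 over all genes. The mean level of the list was 11.27, 10.93 and 11.32 in null mice 1 to 3, 9.46, 9.55 and 9.45 in treated wild type and 11.50 to 11.66 untreated. Hsd3b2, read by a probe set of the steroid dehydrogenase family, stood at 9.33, 9.22 and 9.12 in null, 6.70, 6.65 and 6.16 in treated wild type and 10.86, 11.01 and 11.38 untreated. The urinary protein gene Mup3 read 14.49, 14.38 and 14.50 against 13.35, 13.31 and 13.03; urinary protein genes are near-identical copies. Of 19 female-predominant genes, 9 were lower and 2 higher, with a median of -0.53. Both sex lists share members with other lists, so their counts are not separate results. The male list holds C6, C8a, C8b, Cyp7b1, Ugt2b1, Ces2e, Nudt7 and Egfr. The female list holds Acot3, Acot4, Hao2, Abcd2, Cyp2b9 and Cyp2b13. Rtn4 in that list, a shaper of the endoplasmic reticulum, read 9.61, 9.88 and 10.14 in null, 13.23, 13.12 and 12.95 in treated wild type and 11.77, 11.62 and 11.07 untreated. All mice in this comparison were male. The sex-dependent pattern is known to be set by the pulses of growth hormone, whose part in these differences was not tested. Of 24 genes of growth hormone, IGF and EGF receptor signalling, 6 were higher (25%, against 5.35% of all genes). Another 3 were lower (12.5%, against 8.09%), and differences ran from -1.66 to 2.89. Leaving out 1 array gave 4 to 6 higher and 2 to 3 lower. Igfbp1 was among the lower ones, a call lost without null mouse 1 or 3 or drug-fed wild-type mouse 1 or 3 (differences of -1.34 to -1.66). The higher ones were Egfr (difference 2.89), Igfbp3 (1.86), Igfals (1.74), Bcl6 (1.53), Cish (1.33) and the receptor gene Ghr (0.91). The call of Cish was lost without null mouse 1 or 3 or drug-fed wild-type mouse 2 (differences of 0.93 to 1.13), and that of Bcl6 in each fit without 1 array except the one without null mouse 3 (1.16 to 1.70). Stat5b (0.31) and Socs2 (0.07) were not called.

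Plasma proteins made by hepatocytes were higher in null for complement in 16 of 28 genes and for coagulation in 13 of 29, with medians of 0.76 and 0.50. None of the complement genes was lower, and 1 coagulation gene, Tfpi2, was. C9, the pore-forming end of the complement cascade, read 12.84, 12.56 and 12.78 in null, 10.29, 9.89 and 9.76 in treated wild type and 13.70, 13.61 and 13.80 untreated. Its partners C6 (11.13, 10.94 and 11.21 against 8.27, 9.17 and 9.09) and C8a (12.87, 12.65 and 12.69 against 10.58, 10.66 and 10.97) and the first protease C1s1 (11.63, 11.64 and 11.57 against 8.97, 9.94 and 9.77) followed. Each was at least 4-fold higher, with no overlap. The complement genes that were not called included C1qa, C1qb and C1qc, which macrophages make. Coagulation factor XI (F11) was 4.45-fold higher in null at 9.92, 9.32 and 9.50 against 7.81, 7.23 and 7.23, below the 10.46 to 10.78 of untreated wild type. Of 27 acute phase genes 9 were higher and 1 lower, with a median of 0.15; none was lower without null mouse 2 or drug-fed wild-type mouse 1, and 2 were without null mouse 1 or drug-fed wild-type mouse 2. C-reactive protein (Crp) read 12.68, 12.69 and 12.58 against 11.19, 10.84 and 10.88, and Saa4, the constitutive serum amyloid, read 12.80, 12.57 and 12.54 against 10.34, 9.87 and 9.65. Saa1 and Saa2, the inducible forms, had differences of 1.99 and 1.57 that did not pass the test.

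Of 23 genes for apolipoproteins and lipoprotein remodelling, 4 were higher (17.4%, against 5.35% of all genes) and 2 lower (8.7%, against 8.09%). Apoa4, carried on chylomicrons and HDL, was 14.4-fold higher in null, at 12.72, 13.21 and 13.32 against 8.51, 9.51 and 9.70, with untreated wild type between them at 11.58 to 11.80. Pltp, which moves phospholipid between lipoproteins, was 5.10-fold lower, at 9.69, 9.88 and 10.20 against 12.63, 12.21 and 11.98, and above the 8.73 to 8.96 of untreated wild type. The major apolipoprotein genes Apoa2, Apob and Apoe were not called, with differences of 0.05 for Apoa2, 0.40 for Apob and -0.01 for Apoe. Secreted factors tied to fasting were split, with 9 of 22 higher and 5 lower. Follistatin (Fst), which binds activins, read 5.50, 5.36 and 6.60 against 8.06, 7.99 and 8.28. No fit without 1 array kept all 5 lower secreted factors, and the count was then 3 to 4. It was 3 without null mouse 3 or without drug-fed wild-type mouse 2.

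Hepatocytes near the portal vein and near the central vein express different genes, and both zones had higher genes in null: 10 of 19 periportal genes (1 lower, median 0.67) and 14 of 27 pericentral genes (none lower, or 1 without drug-fed wild-type mouse 1, median 0.63). Periportal Etnppl, which breaks down phosphoethanolamine, read 11.21, 11.35 and 11.30 against 8.71, 8.57 and 8.65. Periportal Pigr, the receptor that carries antibodies into bile, read 12.13, 12.03 and 11.69 in null, 8.56, 8.26 and 9.37 in treated wild type and 12.88 to 13.29 untreated. Pericentral Gulo, the last enzyme of vitamin C synthesis, read 11.14, 10.99 and 10.91 against 8.75, 9.52 and 9.39, and pericentral Slc1a2, a glutamate transporter, read 8.62, 8.91 and 8.24 against 5.18, 5.34 and 5.82. Axin2 and Tbx3, targets of the Wnt signal around the central vein, did not pass the test (differences of 0.07 and -0.39).

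Genes of DNA copying were lower in null, but single mice weighed heavily. Of 30 tested, 14 were lower and 1 higher, with a median of -0.72. The mean level of the list was 7.31, 8.14 and 8.06 in null mice 1, 2 and 3, 8.30, 9.19 and 7.93 in drug-fed wild-type mice 1, 2 and 3, and 6.70 to 6.82 untreated. The groups overlapped in this mean, null mouse 1 was the lowest null mouse for all 30 genes, and drug-fed wild-type mouse 2 stood above the others. Without null mouse 1 the lower genes numbered 5, without null mouse 3 they were 9, without drug-fed wild-type mouse 1 they were 9, and without drug-fed wild-type mouse 2 they were 5, with 2 higher; without drug-fed wild-type mouse 3 the lower genes numbered 19. A fit on only the 6 arrays compared gave 6 lower genes, and quantile normalization gave 9. The helicase subunit Mcm2 read 8.13, 8.87 and 8.84 in null, 10.11, 10.76 and 9.19 in treated wild type and 7.32, 6.88 and 7.36 untreated. The polymerase subunit Pola1 read 6.34, 7.33 and 7.25 against 8.42, 9.10 and 8.40, with untreated wild type at 6.37 to 6.63. Against untreated wild type, 20 of the 30 genes were higher in null and 1 lower, where 3.96% of all genes were higher and 2.69% lower. The member that went the other way was Mcm10, at 10.23, 10.59 and 10.23 in null, 8.24, 8.74 and 7.50 in treated wild type and 11.41, 11.36 and 11.46 untreated, by 1 of its 2 probe sets. Of 24 mitosis genes 3 were lower (12.5%, against 8.09% of all genes) and none was higher. Compared with untreated wild type, 9 were called higher in null, as were 3.96% of all genes. The count of 3 was 1 without null mouse 1 or drug-fed wild-type mouse 2 and 9 without drug-fed wild-type mouse 3. Regulators of the cycle and of DNA repair were lower in 10 of 30 cases. Cyclin D1 (Ccnd1), which starts the cycle, read 9.10, 9.47 and 9.77 against 11.69, 11.80 and 11.49, and the inhibitor Cdkn1a, which stops it, read 7.85, 8.30 and 8.08 against 10.06, 9.75 and 9.70. The repair gene Palb2 was 10.1-fold lower, at 5.14, 5.93 and 6.09 against 9.24, 8.97 and 8.94, with untreated wild type at 5.21 to 5.24.

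**Figure D4:**
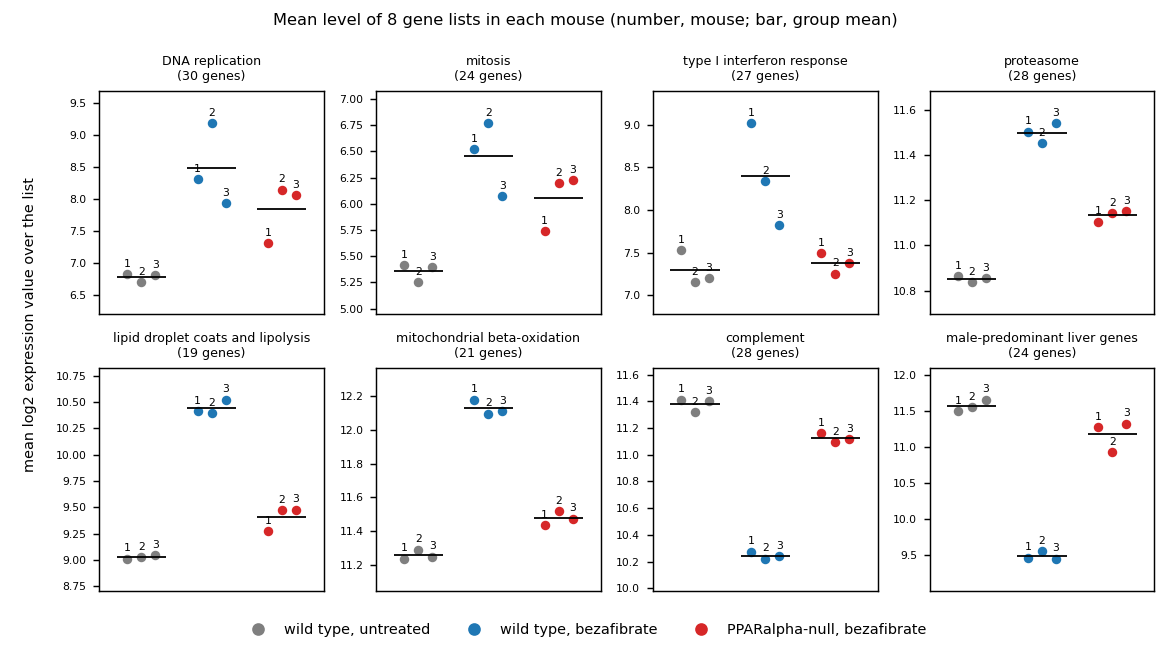
Mean log2 expression value over the genes of 8 lists (vertical axis) in each mouse, numbered, of untreated wild type, treated wild type and PPARalpha-null on bezafibrate; bars are group means. Replication and interferon lists spread widely among the drug-fed wild-type mice, with mouse 2 highest at 9.19 in the first and mouse 1 highest at 9.02 in the second, while the complement and lipid droplet lists are tight.

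Genes of the type I interferon response were lower in null for 17 of 27 tested, with none higher and a median of -1.05. Their mean level was 7.50, 7.25 and 7.38 in null, 9.02, 8.34 and 7.82 in treated wild type and 7.16 to 7.53 untreated, so null and untreated wild type overlapped and drug-fed wild-type mouse 1 was the highest. Usp18, which removes the ISG15 tag and damps the pathway, read 7.01, 6.49 and 6.51 in null against 10.02, 9.61 and 8.29. The antiviral Rsad2 read 7.87, 7.61 and 7.83 against 10.90, 10.14 and 9.15, and Ifit1, which binds foreign RNA, read 6.91, 6.43 and 6.71 against 9.73, 8.75 and 7.34. In each the drug-fed wild-type mice had the order of their list means, and the groups did not overlap. Leaving out 1 array gave 13 to 19 lower genes. Between null and untreated wild type, Usp18 differed by 0.13, Rsad2 by 0.42 and Ifit1 by 0.29, and none of these 3 was called. The 16 macrophage markers had a mean level of 8.35 to 8.50 in null and 8.90, 8.46 and 8.27 in drug-fed wild-type mice 1, 2 and 3, in the same order as the interferon genes. Of these markers 3 were lower in null (Lyz2, Marco and Cd68), or 18.75% against 8.09% of all genes. The count was 0 without null mouse 1 or drug-fed wild-type mouse 1 and 1 without null mouse 2, null mouse 3 or drug-fed wild-type mouse 2. Of the 10 lymphocyte markers none was called (1 was lower without drug-fed wild-type mouse 2 or 3), with means of 5.91 to 5.99 in null and 5.94 to 6.25 in treated wild type. In liver tissue, fewer cells of a type and less RNA per cell cannot be told apart, and the part of these cells in the interferon difference was not tested.

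Antigen presentation was different. The class I genes H2-K1 and B2m did not pass the test (differences of -0.01 and 0.02), while 4 of 14 genes, all of class II or its chaperone, were higher in null. H2-Eb1 read 7.38, 9.05 and 7.50 in null, 5.88, 6.57 and 6.89 in treated wild type and 7.35, 7.29 and 6.67 untreated. H2-Aa read 8.86, 10.19 and 8.94 in null, 8.27, 7.87 and 7.86 in treated wild type and 8.27 to 8.71 untreated. Null mouse 2 was the highest in both. No fit without 1 array kept all 4, and the count of higher genes was then 2 to 3. It was 2 without null mouse 1, null mouse 2, drug-fed wild-type mouse 2 or drug-fed wild-type mouse 3. H2-Ab1 lost its call in each fit without 1 array (differences of 0.69 to 0.99). No gene of the list was lower, or 1 without null mouse 1 or drug-fed wild-type mouse 3.

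Defence genes against oxidants and electrophiles were lower in 12 of 35 cases and higher in 2 (1 without null mouse 1 or drug-fed wild-type mouse 1), with a median of -0.23. The quinone reductase Nqo1 read 6.56, 6.85 and 6.84 in null against 8.34, 8.52 and 8.80, and Srxn1, which repairs peroxiredoxins, read 8.25, 8.19 and 8.56 against 9.83, 10.15 and 10.70. Mgst3, a membrane-bound glutathione transferase, read 8.92, 9.91 and 9.71 against 11.17, 11.52 and 11.77. Yet 15 of the 35 were above untreated wild type in null, Srxn1 and Mgst3 among them, and 1 was below. Over all genes these shares were 3.96% and 2.69%. Among 28 genes of the unfolded protein and amino acid stress responses 2 were lower and 2 higher, or 7.14% each. These shares lay near the 8.09% lower and 5.35% higher of all genes. The lower ones were the serine synthesis enzyme Psat1 (4.55, 6.04 and 6.03 against 8.27, 8.44 and 9.16) and Atf3, and the higher ones Xbp1 and Herpud1. Xbp1 fell under 1.5-fold without null mouse 3 (difference 0.55) or drug-fed wild-type mouse 2 (0.56). Of 17 heat shock genes 3 were lower (17.65%, against 8.09% of all genes), led by the small chaperone Hspb1 at 7.23, 7.49 and 7.74 against 10.35, 10.47 and 11.02. Averaging a gene's probe sets raised that count to 5. All 28 proteasome genes had a difference below 0, with a median of -0.30. Of these, 3 were called lower (10.7%, near the 8.09% of all genes), led by Psmd4 (10.89, 11.05 and 10.88 against 11.91, 11.79 and 11.86). Leaving out drug-fed wild-type mouse 3 left 1 of the 3. The list mean was 11.11 to 11.15 in null, 11.45 to 11.54 in treated wild type and 10.84 to 10.86 untreated.

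Metal handling had 2 strong members in opposite directions. The zinc importer Slc39a5 was 14-fold lower in null, at 5.91, 6.14 and 6.26 against 10.01, 9.83 and 9.88, with untreated wild type at 5.90 to 6.00. The zinc and iron importer Slc39a14 was 2.50-fold higher, at 10.35, 10.33 and 9.96 against 8.83, 9.0 and 8.85. Serpina7, the thyroxine-binding globulin, was lower at 7.62, 9.10 and 9.06 against 10.75, 10.45 and 10.61. Among clock genes and their outputs, 7 of 28 were higher and 1, Timeless, was lower, a call lost without null mouse 1, 2 or 3 or without drug-fed wild-type mouse 1 or 2 (differences of -0.56 to -1.09). The 7 higher genes were 25% of the list, against 5.35% of all genes, and numbered 6 to 9 when 1 array was left out. Cry1 (difference 0.80), Hlf (0.75) and Alas1 (0.73) were among them. The call of Alas1 was lost without null mouse 2 or drug-fed wild-type mouse 2. Clock (difference -0.35), Nr1d1 (-0.19), Per2 (0.54) and Dbp (0.15) did not pass the test. These last 4 were chosen after their values were seen.

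Some genes called higher in null lay between treated and untreated wild type. A rule took the genes called higher whose null level lay furthest below untreated wild type. The place of genes taken this way between the wild-type groups follows from that choice. Scara5, a ferritin receptor, read 9.0, 9.01 and 7.92 in null, 5.24, 5.89 and 6.36 in treated wild type and 10.71, 9.94 and 9.66 untreated, by 1 of its 2 probe sets. Hectd2os, a transcript antisense to Hectd2, read 4.90, 6.11 and 5.67 in null, 4.34, 4.08 and 4.47 in treated wild type and 9.26, 9.80 and 9.38 untreated, so null lay 1.26 above the treated and 3.92 below the untreated mice. How the array separates the strands of Hectd2 and its antisense partner was not tested. Fam47e read 8.49, 6.37 and 9.25 against 4.25, 5.07 and 4.61, with null mouse 2 apart from the other null mice. It was not called between null and untreated wild type (difference -1.45), so a null level below untreated wild type was not shown for Fam47e. Most treated wild-type values of Fam47e lay under the filter level.

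Lists of markers of other cells were short, so single genes moved their shares. Over all genes 5.35% were higher and 8.09% lower. Of 16 stellate and fibroblast markers 1 (Colec10) was higher and 1 (Lrat) lower, or 6.25% each. Leaving out 1 array gave 1 to 3 higher and 0 to 2 lower, with Lrat's side at 0 without null mouse 1 or 2. Of 15 sinusoidal endothelial markers 1 (Stab2) was higher, or 6.67%. Of 8 blood cell markers S100a8 was higher and S100a9 lower, or 12.5% each, with 2 higher without null mouse 3. The bile duct list had 5 genes tested, with Krt23 and Sox9 lower (40%) and the defining keratin Krt19 under 1.5-fold (difference 0.43). Krt23 read 5.41, 5.71 and 5.41 in null, 9.54, 9.31 and 9.07 in treated wild type and 5.05 to 5.36 untreated. The call of Sox9 fell below 1.5-fold without drug-fed wild-type mouse 3 (difference -0.57). Car3, listed as a fat and muscle marker and also abundant in male liver, was 3.21-fold higher in null (14.39, 14.28 and 14.34 against 12.59, 12.40 and 12.98), while the other 6 genes of that list, among them Ckm and Acta1, were not called.

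Genes beside a disrupted gene can stay those of the strain in which it was made. Of the 10 genes tested on each side of Ppara in the order of the mouse reference, 4 of 20 were called, or 20%, against 13.4% of all genes; within 25 on each side, 8 of 50 were called, or 16.0%. Celsr1, a cadherin of planar polarity, was the only one of the nearest 20 to be called higher. It read 6.75, 6.93 and 6.72 in null, 4.91, 4.48 and 4.70 in treated wild type and 5.38, 5.16 and 5.27 untreated, apart from both wild-type groups. The lower neighbours were Atxn10 (11.09, 10.93 and 11.26 against 12.22, 12.20 and 12.31, by all 5 of its probe sets), Cdpf1 and 5031439G07Rik, none of them called between null and untreated wild type. The call of 5031439G07Rik was lost without null mouse 1 (difference -0.71) or drug-fed wild-type mouse 1 (-0.43). Further out, Bik, a promoter of cell death, was lower than both wild-type groups, at 5.96, 6.01 and 6.08 against 7.32, 7.92 and 7.50 treated and 6.98, 7.97 and 7.20 untreated; it was chosen after its values were seen. Whether these differences belong to the chromosome segment was not tested.

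**Figure D5:**
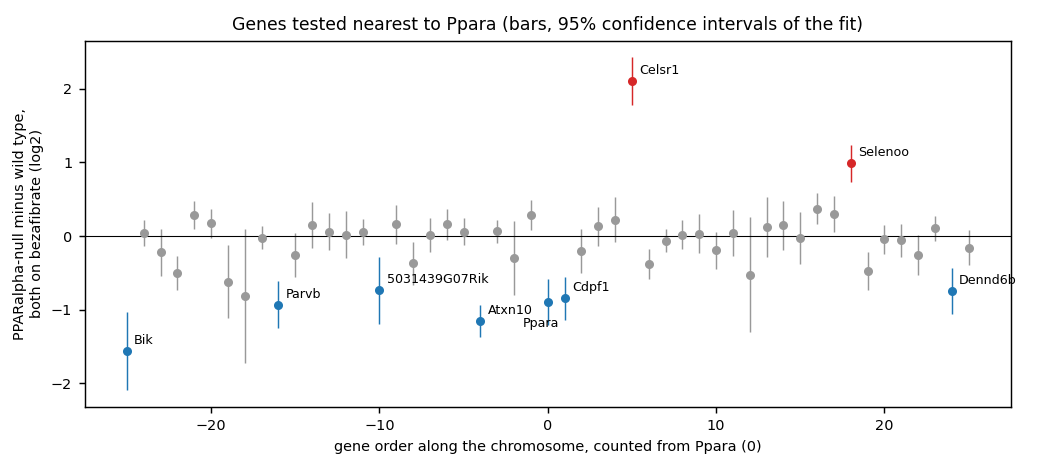
Difference between PPARalpha-null and wild type, both on bezafibrate (log2, vertical axis), for the 25 genes tested on each side of Ppara, placed by gene order (horizontal axis, Ppara at 0); bars are 95% confidence intervals of the fit. Called genes are coloured and named: Celsr1 and Selenoo are higher, and 6 neighbours and Ppara are lower.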

How the data were processed

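The deposited series matrix holds log2 expression values for 45101 probe sets on 12 arrays, made with RMA per the submitters' processing notes, which give no version. RMA subtracts background, equalises the arrays and summarises probes, so a global shift between livers would be removed. Depth does not apply to arrays; 3 arrays a group limit the precision.

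From these values, 64 control probe sets were left out. Probe sets above the 40th percentile on at least 3 arrays were kept, which left 28344. Symbols came from GEO's platform annotation: 34945 probe sets had 1 symbol, 932 several and 9160 none. The probe set with the highest mean stood for a gene, which left 13598 genes. limma 3.58.1 (R 4.3.3) fitted the means of the 4 groups (lmFit, eBayes) with 8 residual degrees of freedom. A call needed a Benjamini-Hochberg adjusted p under 0.05 and 1.5-fold. Intervals are 95%. On simulated data for this comparison over 13598 genes, the fit recovered 44.8% of genes changed 1.5-fold, 94% of those changed 2-fold and 98.5% of those changed 4-fold, with 4 false calls. The simulation changed 67, 67 and 66 genes at these sizes, far fewer than were called here. Its noise was drawn separately for each gene and array, so variation that many genes share within a mouse was not simulated. Estimates of a true 1.5-fold change fall on both sides of the 1.5-fold limit, which holds that recovery down.

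The genes named were, by rule, the 15 largest non-overlapping differences in each direction, up to 6 called members per list (every member of lists with 15 or fewer measured), 12 genes for each pattern across the 3 groups, the 10 nearest genes on each side of Ppara and a set of known PPARalpha genes. Members and lists were chosen with earlier results of these data known. Lists share members, so their counts are not independent of each other. Genes named outside the rule, after their values were seen, were Slc22a5, Slc27a5, Cat, Acaa1a, Hsd17b4, Crot, Hao1, Nudt7, Pecr, Pnpla2, Hsd17b13, Sqle, Fasn, Me1, Gstm3, Apoe, Tfpi2, C1qa, C1qb, C1qc, Saa1, Saa2, Axin2, Tbx3, Ghr, Stat5b, Socs2, Clock, Nr1d1, Per2, Dbp, Ccl6, Pea15a, Bik and Selenoo. Alternatives changed the filter, the probe set rule, the fit, the normalization, the fold limit and the replicate block, and left out each array in turn. Figures were drawn with Python 3.11.15, pandas 2.3.3 and matplotlib 3.10.9.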

Additional observations from a re-analysis of the deposited data

How the results depend on the processing

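Of 17 alternatives, a 2-fold limit for a call moved the counts by over 1.5 times, to 753 genes called, 290 higher and 463 lower, and to 1380 probe sets. Leaving out 1 array gave 1637 to 1953 genes called, 666 to 755 higher, 971 to 1208 lower and 3196 to 3685 probe sets. Of 294 named genes that were called, 244 kept their call in every alternative except the 2-fold limit, 46 lost it without 1 array, and no named gene reversed direction. With quantile normalization the median difference was 0.03 and the higher share of calls moved from 39.8% to 44.7%. The replicate numbers do not pair the mice: deviations of same-numbered null and treated wild-type mice correlated at 0.055, 0.113 and -0.07, and 1 null mouse correlated best with its own number. With the replicate number as a block, 1824 genes were called, 729 higher and 1095 lower, along with 3527 probe sets; 1810 genes were called in both fits, and 10 named genes changed their call. The cause of these shifts was not tested. The filter level of 4.87 to 4.92 is a percentile of each array and no measured background, so how near such values lie to background was not tested.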
